A study of Cervus nippon with 40 samples.

Results

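The kidney of Sika Deer (Cervus nippon) was represented by 4 small RNA libraries of the 40 in the series, 1 for every stage sampled, namely juvenile at 1 year, adolescence at 3, adult at 5 and aged at 10. They were taken as the libraries labelled kidney and set against the 36 libraries of adrenal, antler, brain, heart, liver, lung, skeletal muscle, spleen and testes. All deer were males of the Shuangyang breed without any treatment named in the labels. Each library was a pool of RNA from 3 deer, and with 12 deer in the study (3 of each age) all organs of a given age came from the same animals. With 1 library per organ and stage, the spread between animals was not measured, and the 4 stages served as the replicates of an organ. Of the 337 names of known miRNAs in the series (the names given after bovine miRNAs), 210 had at least 1 read in kidney, with 156 in the juvenile, 169 in the adolescence, 149 in the adult and 176 in the aged library. In all 4 kidney libraries 120 names were listed, and 125 had 10 or more reads over the 4.

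MiRNAs are short RNAs that pair with messenger RNAs and lower the output of their targets. The tubules that make up most of the kidney are epithelial. This organ is known in mammals for miR-192 of tubule cells, the miR-30 family, the miR-200 family of epithelia and miR-196. The miR-196 genes lie inside the Hox clusters that pattern the body. In a piece of whole organ, fewer cells of a type and less of a miRNA per cell cannot be told apart.

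Levels are given in RPM, reads scaled so that all libraries have the same total of miRNA reads. The kidney libraries held 329441 (juvenile), 367081 (adolescence), 329393 (adult) and 856485 (aged) miRNA reads, so 1 read stood for 1.17 to 3.04 RPM, and the other 36 held 41866 to 7759033. Over the log2 values of 124 well covered miRNAs, each kidney library was nearest to another kidney library, with r of 0.911 to 0.972 among the 6 kidney pairs (mean 0.940). The nearest pairs were juvenile with adolescence (0.968) and adult with aged (0.972). Mean r of kidney was 0.872 with lung, 0.867 with adrenal, 0.861 with testes, 0.857 with spleen and 0.843 with liver, and it was lowest with brain (0.723). These r describe libraries that share their deer within a stage and carry no test. Among all 40 libraries, 37 were nearest to their own organ. The adolescence lung had the aged spleen as its nearest library, and the reverse also held (r = 0.950). The juvenile testes lay nearest the juvenile adrenal (r = 0.921). The comparisons were therefore also run without the adolescence lung and the aged spleen, and the contrast of kidney with the mean of the other organs also without testes.

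A few miRNAs made up most of the kidney profile. With names that repeat the reads of another name counted once, the highest miRNA held 28.5% to 33.6% of the known miRNA reads, the 5 highest 67.2% to 73.7%, the 10 highest 84.0% to 87.3% and the 20 highest 95.4% to 96.0%. The share of the 5 highest was 98.6% to 99.0% in skeletal muscle and 57.3% to 74.5% in testes. By mean RPM the order was miR-192, let-7b, miR-30c, miR-30f, miR-199a-3p, miR-145, miR-26a, miR-378, miR-199a-5p and miR-186. It went on with let-7c, miR-22-3p, miR-339a, miR-2284x, let-7a-5p, miR-1, miR-409b, miR-1839, miR-7 and miR-196b. The first place changed hands between the younger and the older libraries. MiR-192 was first in the juvenile and adolescence kidney, and let-7b in the adult and aged kidney.

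**Figure D1:**
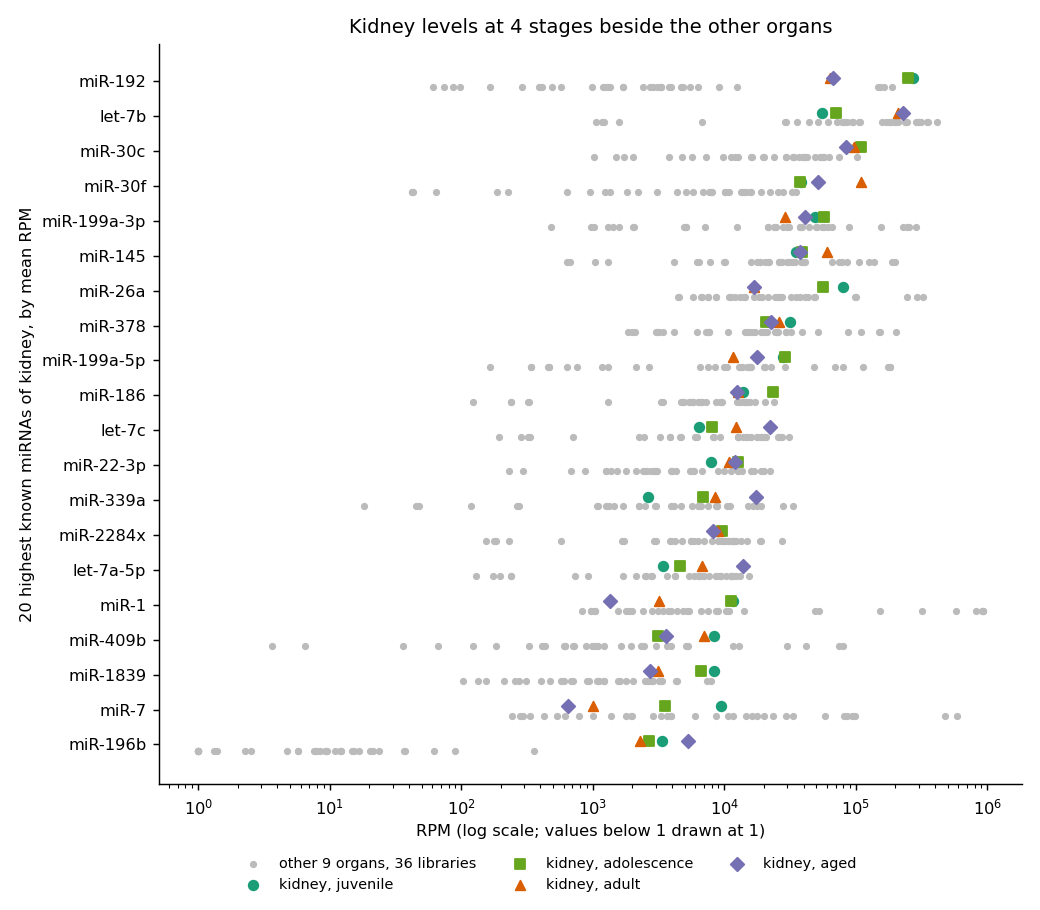
RPM (horizontal log axis) of the 20 highest known miRNAs of kidney, with the 4 kidney libraries as coloured symbols by stage and the 36 libraries of the other organs as grey points (values below 1 drawn at 1). MiR-196b and miR-30f lie to the right of all grey points at every stage, while let-7b, miR-26a and most others lie inside them.

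MiR-192 had 270874 RPM in the juvenile, 248624 in the adolescence, 63924 in the adult and 67465 in the aged kidney, a mean of 162722 ± 112414 (SD, n = 4). The mean of liver was 162672 RPM, but its 4 libraries (147600 to 187160) lay below the younger and above the older kidney libraries. The 8 remaining organs had means of 102 to 6069. MiR-30c, of the miR-30 family, varied little between the stages, at 101763, 109632, 96775 and 84402 RPM. It held rank 2 in the juvenile, adolescence and aged kidney and rank 3 in the adult, and only 1 library outside kidney, the adult heart at 102527 RPM, exceeded the lowest kidney value. MiR-145 and miR-199a-3p, known from smooth muscle and connective tissue cells, followed with 42988 ± 11614 and 44177 ± 12239 RPM (SD, n = 4). Their levels lay far below those of spleen for miR-145 (mean 162959) and of antler for miR-199a-3p (mean 253112).

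The contrast of kidney with the mean of the other 9 organs asked which miRNAs set the kidney apart. The limma model held organ and stage and took log2(RPM + 1) as its values, with libraries first brought to a common level by TMM, a scaling that assumes that the bulk of miRNAs does not differ. Calls required an adjusted p (Benjamini-Hochberg) under 0.01 and a log2 difference beyond 1 in either direction. Of 124 miRNAs tested, 20 were called (16.1%), 12 higher (9.68%) and 8 lower (6.45%) in kidney, while 36 had an unadjusted p below 0.05. All 12 higher miRNAs were above the mean of the other organs at each of the 4 stages, and all 8 lower ones below it. The split depends on the scale. On total miRNA reads the median log2 difference moved from 0.01 to 1.08, and 42 were called higher and 2 lower (miR-124a and miR-133c). Without the adolescence lung and the aged spleen, 27 were called (18 higher, 9 lower), among them all 20. Without testes 24 were called, again with all 20 among them.

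**Figure D2:**
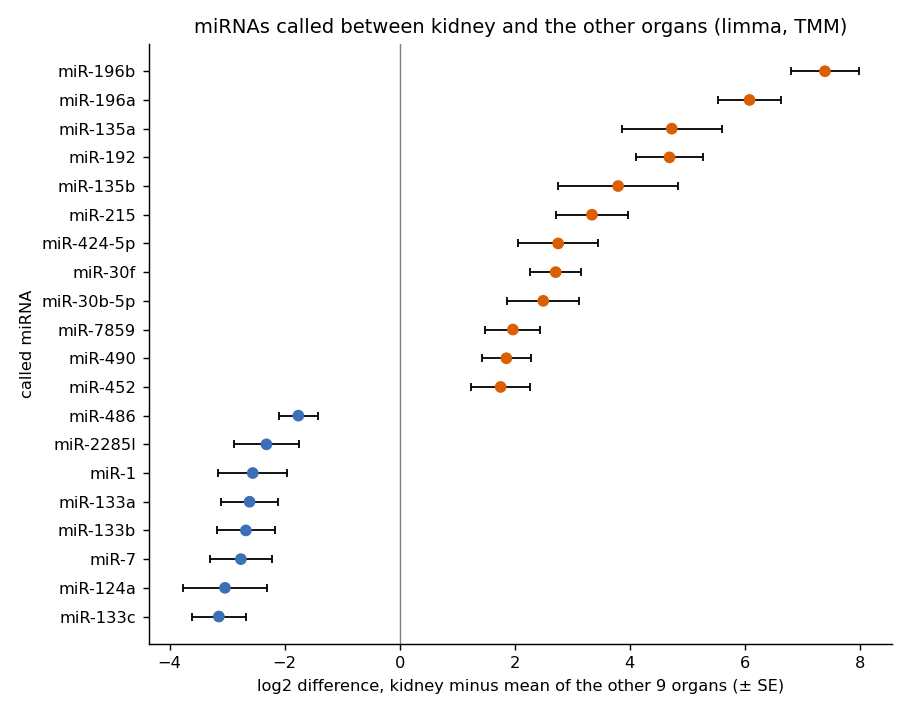
Log2 difference (horizontal axis) between kidney and the mean of the other 9 organs for the 20 called miRNAs, from limma after TMM scaling; bars are the standard error, orange is higher and blue lower in kidney. MiR-196b (7.39) and miR-196a (6.08) lead the rises, and miR-133c has the lowest value (-3.14).

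The Hox-cluster miRNAs miR-196b and miR-196a differed most. MiR-196b had 3378 RPM in the juvenile, 2694 in the adolescence, 2298 in the adult and 5272 in the aged kidney. The other 36 libraries ran from 0 to 357 RPM with a median of 8.79, so the groups did not overlap in RPM. The kidney mean was 29.8 times that of testes, the next organ, and the log2 difference was 7.39 (SE 0.59, limma adjusted p = 1.52e-12). MiR-196a had 1575, 1196, 723 and 953 RPM in kidney against 0 to 153 elsewhere (median 4.22), again without overlap in RPM, at 11.5 times the level of testes. Its log2 difference was 6.08 (SE 0.55, limma adjusted p = 2.56e-11). After TMM scaling neither was called above skeletal muscle, with log2 differences of 0.74 for miR-196b and -1.03 for miR-196a. The other Hox-cluster members on the list, miR-10a and miR-10b, had 2 and 16 reads over the 4 kidney libraries and were not tested, so 2 of 2 tested members were higher with a median of 6.74, where the median of all 124 was 0.01. Both tested members were also proposed as kidney markers from these data, so this count restates that choice and says nothing further of the cluster.

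MiR-192 and miR-215, which share a seed and are known to be switched on by HNF1 factors in tubule cells and hepatocytes, were both called. The log2 difference of miR-192 was 4.69 (SE 0.59, limma adjusted p = 8.53e-08). MiR-215 was far scarcer, with 225, 218, 15.2 and 17.5 RPM in the juvenile, adolescence, adult and aged kidney, on 74, 80, 5 and 15 reads. Outside kidney it ran from 0 to 82.2 RPM (median 1.03), with the highest value in juvenile liver, and 5 libraries reached the lowest kidney value. Its log2 difference was 3.34 (SE 0.63, limma adjusted p = 8.84e-05). Their neighbour miR-194 had 3 reads in kidney and was not tested.

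In the miR-30 family, known for its high level in kidney epithelium and podocytes, 2 of 4 tested members were called higher, with a family median of 2.35. Over all 124 tested miRNAs, 9.68% were called higher and the median was 0.01. MiR-30f had 38131, 37842, 110051 and 51383 RPM, each value above the highest of the other 36 libraries (35203, adolescence liver), and its log2 difference was 2.71 (SE 0.44, limma adjusted p = 1.18e-05). MiR-30b-5p had 543, 1490, 155 and 333 RPM against 2.71 to 330 elsewhere, with 3 libraries at or above the lowest kidney value, and a log2 difference of 2.50 (SE 0.62, limma adjusted p = 0.00228). That call was lost without the juvenile (limma adjusted p = 0.0126) or the adolescence kidney (0.0382). MiR-30c and miR-30a-5p missed the limit at log2 differences of 1.16 and 2.21 (limma adjusted p = 0.0232 and 0.0149), and both passed it without the adolescence lung and the aged spleen (0.00396 and 0.0036). MiR-30d and miR-30e-5p had 9 and 27 reads in kidney and were not tested. The whole family summed to 136522 to 207782 RPM in kidney and to 1084 to 116216 elsewhere.

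MiR-200b, which guards the epithelial state by lowering ZEB factors, had too few reads to be tested. It held 24.3, 43.6, 48.6 and 72.4 RPM in the juvenile, adolescence, adult and aged kidney, on 8, 16, 16 and 62 reads. No other library exceeded 20.5 RPM (adult liver) and the median outside kidney was 0. The 95% Poisson interval of the aged value was 55.5 to 92.8 RPM, and such intervals cover counting error alone. With no minimum of reads its log2 difference was 3.77 (limma adjusted p = 3.99e-11). That p carries little weight, since miR-200b was at 0 in most libraries outside kidney. The same setting also called miR-429, on 2 reads, between the older and younger kidney libraries. The other members were at 0 (miR-200a, miR-200c, miR-141) or at 2 reads (miR-429). All 4 proposed kidney markers, miR-196a, miR-196b, miR-200b and miR-30b-5p, were thus highest in kidney by organ mean, but these markers were proposed from these data. In a list of kidney epithelium from general knowledge, miR-192, miR-30a-5p and miR-200b also had their highest organ mean in kidney, though miR-192 exceeded liver by less than its spread. MiR-204 and miR-194, from the same list, were near absence with 1 and 3 reads.

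The remaining rises were less even. MiR-135a had 1639, 5326, 355 and 552 RPM in kidney and 0 to 1039 elsewhere (median 14.4), with 6 libraries at or above the lowest kidney value, and its log2 difference was 4.73 (SE 0.87, limma adjusted p = 8e-05). MiR-135b had 1654, 659, 103 and 24.5 RPM, and juvenile brain reached 3349. Its log2 difference of 3.80 (limma adjusted p = 0.00575) was no longer called without the juvenile (0.0852), the adolescence (0.042) or the adult kidney (0.0195), and 8 of 24 alternatives ended the call in all. MiR-424-5p, of an X-linked cluster that restrains the cell cycle, had 252, 300, 18.2 and 46.7 RPM in kidney and a mean of 1704 in testes. It was called at 2.75 (limma adjusted p = 0.00252), but not without the juvenile (0.0126) or the adolescence kidney (0.0503), and 7 of 24 alternatives ended the call in all.

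MiR-7859, miR-490 and miR-452 completed the rises, with log2 differences of 1.97, 1.85 and 1.75 and limma adjusted p of 0.00168, 0.00111 and 0.00884. Outside kidney, miR-7859 reached 334 RPM in aged testes, miR-490 1845 in aged heart and miR-452 49.2 in adolescence lung. MiR-7859 ranged from 76.3 to 197 RPM in kidney and lost its call without the adult library (0.0144). MiR-490 (176 to 671 RPM) lost its call without that library (0.0138) and in 6 of 24 alternatives in all, among them those without antler (0.0128) and without skeletal muscle (0.0467). MiR-452 (11.7 to 66.8 RPM) lost its call without the juvenile (0.0852), the adult (0.0411) or the aged kidney (0.0157), and in 10 of 24 alternatives in all, among them those without brain (0.0114), heart (0.0184) or liver (0.0218).

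The 8 lower miRNAs were largely those that mark muscle, nerve and endocrine tissue. Of the striated muscle markers, 4 of 5 tested were called lower, where 6.45% of all 124 were. MiR-1 had 11626, 11221, 3157 and 1345 RPM in kidney, and a mean of 919199 in skeletal muscle. Its log2 difference was -2.56 (SE 0.60, limma adjusted p = 0.00147), and the call was lost without the adult (0.0110) or the aged kidney (0.0202). MiR-133a (261, 804, 1123 and 939 RPM), miR-133b (9.11 to 35.4) and miR-133c (0 to 24.5) had differences of -2.61, -2.68 and -3.14 (limma adjusted p = 8.84e-05, 8.84e-05 and 3.58e-06). These 4 calls rested on the organs rich in muscle. With skeletal muscle and heart left out, an alternative chosen after seeing the data, the differences were -0.23 for miR-1, -0.58 for miR-133a, -0.71 for miR-133b and -1.20 for miR-133c, none was called, and the count over all miRNAs was 12 (9 higher, 3 lower).

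The neuronal miR-124a had 4 reads over the 4 kidney libraries against a mean of 32291 RPM in brain, with a log2 difference of -3.04 (limma adjusted p = 0.00168). The call was lost without the juvenile (0.0165) or the adult kidney (0.0189), and without brain (0.0623). MiR-7, of neuroendocrine cells, had 9425, 3533, 1008 and 647 RPM in kidney against a mean of 314222 in adrenal, and a difference of -2.76 (SE 0.54, limma adjusted p = 0.000136). Without brain and adrenal, also chosen after seeing the data, the difference of miR-7 was -1.66 and not called (0.0205). MiR-486, abundant in red blood cells and muscle, had 1542 to 2932 RPM in kidney and 26374 in heart, with -1.76 (limma adjusted p = 8.84e-05), and with -0.88 and no call without skeletal muscle and heart (0.0745). MiR-2285l, of a ruminant family, had 2.34 to 27.3 RPM on 23 reads, with -2.32 (limma adjusted p = 0.00168), and lost its call without the adolescence (0.0186) or the aged kidney (0.0276). The call was also lost without antler (0.0159) or liver (0.026), where its means were 530.4 and 2322 RPM. Kidney did not have the lowest mean of the 10 organs for any of the 8.

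Markers of other tissues were present in the kidney libraries to different degrees. The striated muscle list (4 of 8 members listed) summed to 11896, 12085, 4293 and 2309 RPM in the juvenile, adolescence, adult and aged kidney, and to 1229 to 948933 elsewhere with a median of 7135, so the younger kidney libraries lay above that median and the older ones below it. Blood cell markers (4 of 8 listed) summed to 1639 to 3080 RPM in kidney and to 633 to 40693 elsewhere, with a median of 3290. The endocrine list was carried by miR-7, whose 9425 RPM in the juvenile kidney exceeded the median elsewhere (4948), while the other 3 kidney libraries lay below it. Of 5 neuronal markers only miR-124a was listed. The part of such cells in the results was not tested. The markers at 0 in kidney bear little on this, since they were scarce in the tissue they mark. MiR-206, miR-208a and miR-499 did not exceed 6.20 RPM in any heart or skeletal muscle library, and miR-208b reached 78.1. MiR-128, miR-153, miR-219-3p and miR-488 reached at most 14.1 RPM in brain, and miR-375 at most 10.7 in adrenal. In spleen miR-142-3p reached 47.9 RPM and miR-451 4.79, and miR-223 and miR-155 were at 0 in all 40 libraries, as was miR-122 of hepatocytes. Of the germ cell markers, miR-449a reached 89.2 RPM and miR-202 14.9 in testes, and miR-449c was at 0 there.

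Lists without a rise were as follows. None of 6 tested let-7 members (median -0.26), of 5 tested stroma members (0.01), of 8 tested DLK1-DIO3 members (0.65) or of 2 tested miR-17-92 members (0.55) was called. The endothelial miR-126-3p had 30.4, 73.6, 9.11 and 23.4 RPM and a difference of 1.29 (SE 0.63, limma adjusted p = 0.167), and miR-126-5p was at 0. Of 7 tested miR-2284 and miR-2285 members 1 was called lower and none higher, where 6.45% and 9.68% of all 124 were. All lists were drawn up with results of these data known.

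Tests against single organs asked whether a miRNA stood above each organ or above their mean alone. None of the 124 (0.0%) was called above all 9 organs, none at an unadjusted p below 0.05 in all 9, and none was below all 9. MiR-196b and miR-196a were called above 8 organs. The exception was skeletal muscle, with log2 differences of 0.74 and -1.03 (SE 0.79 and 0.73, limma adjusted p = 0.485 and 0.307). This exception rests on the scaling, since TMM factors were 0.0291 to 0.0746 in skeletal muscle and 1.84 to 2.40 in kidney. In RPM, skeletal muscle held 21.3 to 89.8 of miR-196b and 10.8 to 131 of miR-196a, below every kidney library, and on total miRNA reads both were called above all 9 organs.

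MiR-192 was called above 8 organs and did not differ detectably from liver (-0.29, SE 0.79, limma adjusted p = 0.875). MiR-215 was called above 7, with 1.01 against liver (limma adjusted p = 0.436) and 2.59 against spleen (0.0207). MiR-135a and miR-30f were called above 6 organs each, the former not above adrenal, brain or testes and the latter not above heart, liver or lung. MiR-424-5p and miR-452 were above 5, miR-30b-5p and miR-490 above 4, and miR-135b and miR-7859 above 3. These counts also depend on the scaling. MiR-424-5p, miR-452, miR-30b-5p and miR-7859 were not called above skeletal muscle. In RPM, every skeletal muscle library lay below every kidney library for each of them. MiR-490 was also called below brain (-2.02) and heart (-2.65). MiR-424-5p had -2.76 against testes without a call (limma adjusted p = 0.0283).

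Among the lower miRNAs, miR-1 was called below heart and skeletal muscle, with values from -1.40 to 0.92 against the other 7 organs. MiR-7 was called below adrenal (-6.79), antler, brain (-5.49), skeletal muscle and testes, and lay within 0.10 of heart and liver. These values depend on the TMM scaling. In RPM the order of miR-7 against skeletal muscle was reversed, with 647 to 9425 in kidney and 242 to 536 in skeletal muscle. Its mean RPM was 3653 in kidney, 526 in heart and 2472 in liver. MiR-2285l was called below antler, liver (-7.27), lung and spleen. MiR-486 was called below 5 organs and above testes (1.94). Skeletal muscle was among the 5 (-4.81), but in RPM its mean was 1347 against 2338 in kidney. The number of calls was lowest against adrenal (7 higher, 5 lower) and highest against brain (25 higher, 20 lower). In RPM, 3 of the 124 tested miRNAs (2.42%) had every kidney library above every other library, namely miR-196a, miR-196b and miR-30f. Of names listed in kidney alone, miR-2340 had 3 reads, miR-429 had 2 and miR-204 had 1.

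**Figure D3:**
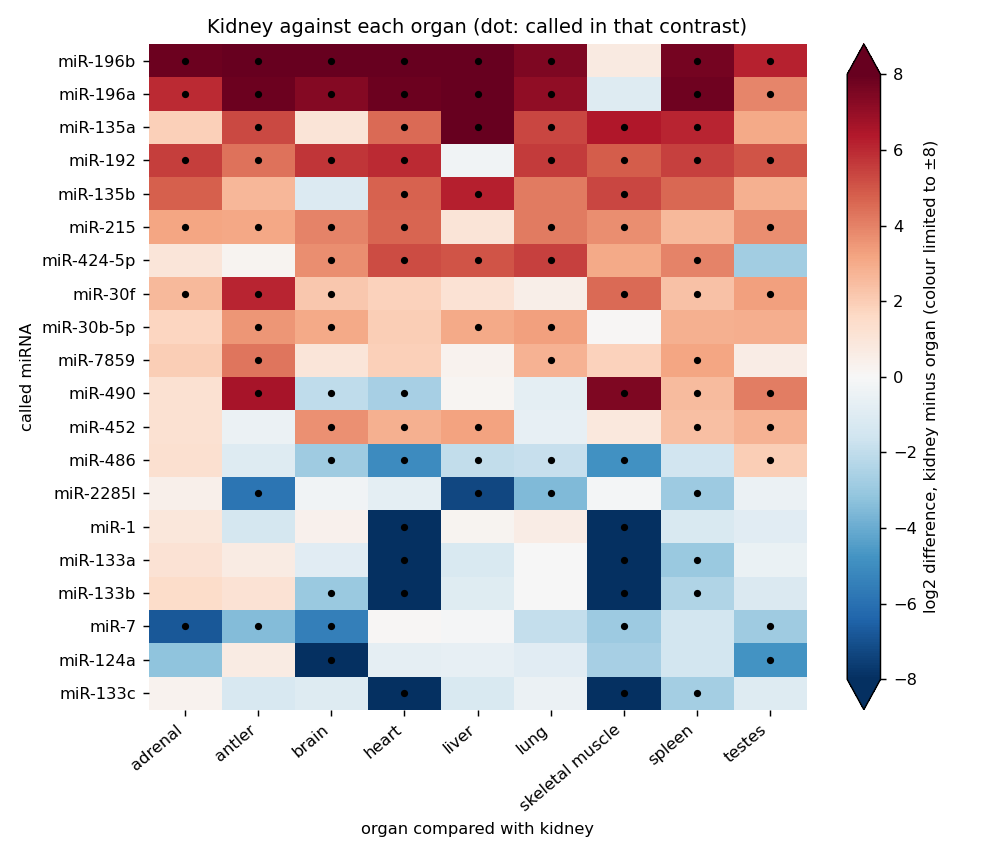
Log2 difference between kidney and each of the other 9 organs (columns) for the 20 called miRNAs (rows), limma after TMM scaling; red is higher and blue lower in kidney, colour stops at 8 in either direction, and a dot marks a called contrast. Liver lacks a dot for miR-192 and miR-215, skeletal muscle lacks 1 for miR-196a and miR-196b, and the muscle miRNAs are darkest against heart and skeletal muscle.

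The course over the stages rests on 1 library each and has no replicate check. A fold of at least 2 was taken as up and at most 0.5 as down. From juvenile to adolescence 83 miRNAs had enough reads, of which 10 went up (12.0%) and 10 down (12.0%). From adolescence to adult 16 of 82 went up (19.5%) and 22 down (26.8%), and from adult to aged 9 of 81 went up (11.1%) and 11 down (13.6%). The step from adolescence to adult thus held the largest number of folds past 2 in both directions. Among miRNAs with enough reads at all 3 steps, the most frequent course, with 28 miRNAs, was level at each step. It included the abundant miR-30c, the stromal miR-145 and miR-199a-3p, and also miR-196a, miR-186 and miR-22-3p. A single rise at the adult stage was seen in 10 and a single drop there in 8. Level steps can still add up to a drift. From juvenile to aged, let-7c went from 6390 to 22197 RPM and miR-30a-5p from 1578 to 392, both in the level group.

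The leading miRNAs took opposite courses at that step. MiR-192 stood at 0.257 of its adolescence level in the adult kidney and miR-26a at 0.298 (79884, 55939, 16688 and 16772 RPM over the stages). Let-7b, known to build up as cells mature, was 2.95 times higher, with 55027, 70919, 209045 and 227420 RPM. MiR-30f was 2.91 times higher in the adult and then at 0.467 of that level in the aged kidney. MiR-339a went from 2617 through 6870 and 8473 to 17526 RPM, and let-7a-5p from 3436 to 13902. MiR-135b was the only miRNA that went down past that fold at all 3 steps. MiR-7 and miR-1 stood in the aged kidney at 647 and 1345 RPM, from 9425 and 11626 in the juvenile. MiR-133a took another course than miR-1, with 804 to 1123 RPM in the 3 later libraries and 261 in the juvenile. The ratio of the older to the younger libraries was 0.624 for miR-133b and 0.410 for miR-133c, both on few reads.

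The miRNAs called higher in kidney did not share 1 course. MiR-196b was lowest in the adult and highest in the aged kidney, within a range of 2298 to 5272 RPM. MiR-135a and miR-30b-5p were highest in adolescence and lowest in the adult. MiR-215 stood at 0.070 and miR-424-5p at 0.061 of their adolescence level in the adult, on 5 and 6 reads. MiR-200b, which was not tested, had its lowest value in the juvenile and its highest in the aged library.

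**Figure D4:**
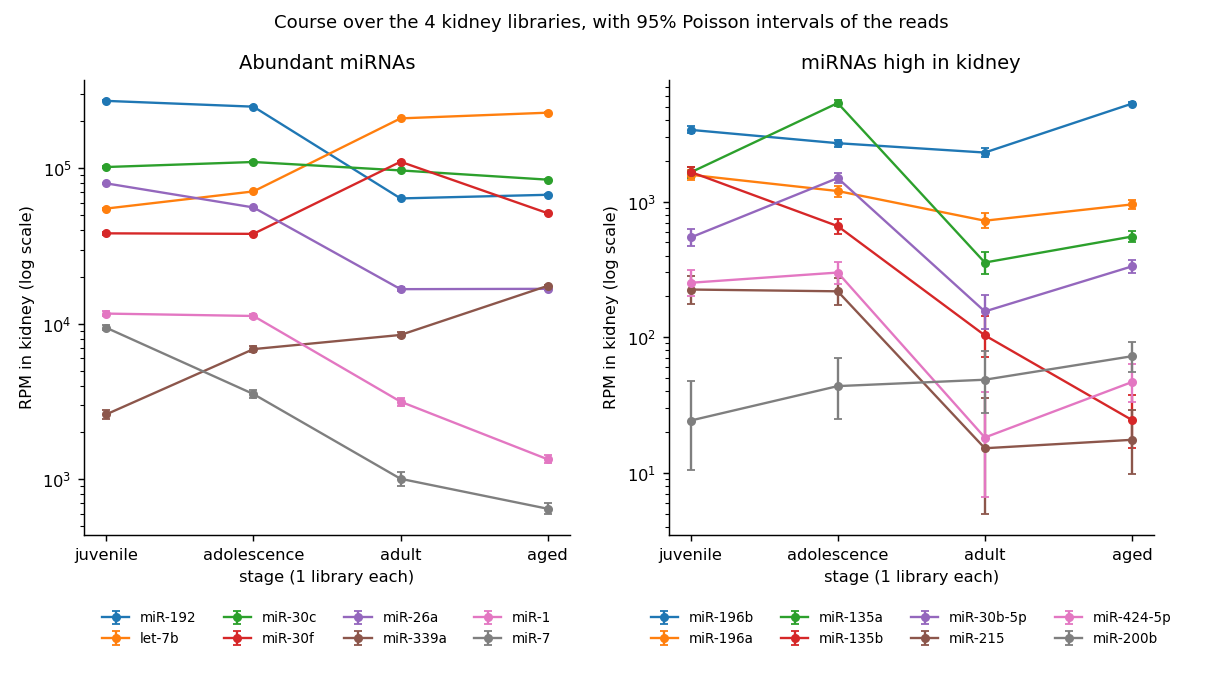
RPM in kidney (vertical log axis) at the 4 stages, 1 library each, for 8 abundant miRNAs (left) and 8 miRNAs high in kidney (right); bars are 95% Poisson intervals of the reads, which cover counting error alone. The lines of miR-192 and let-7b cross between adolescence and adult, and miR-135a, miR-135b, miR-215 and miR-424-5p lie lower in the adult than in adolescence.

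The adult and aged kidney were then tested against the juvenile and adolescence kidney, with the spread taken from all organs. None of 124 miRNAs was called (0.0%) by limma, by edgeR or by DESeq2, with 20, 21 and 35 at an unadjusted p below 0.05. The lowest limma adjusted p was 0.156, for miR-215 (-3.53, SE 1.01) and miR-450b (-2.68, SE 0.80). The largest positive differences were 2.45 for miR-150 of lymphocytes (6.07, 68.1, 115 and 130 RPM), 2.36 for miR-2889, 2.17 for miR-2898 and 1.95 for miR-2478. The lowest were -4.25 for miR-135b, -3.59 for miR-2285f, -3.53 for miR-215 and -3.21 for miR-33a. MiR-192 had -1.92 (SE 1.17, limma adjusted p = 0.373) and let-7b 1.87 (SE 0.87, 0.277). Without the adolescence lung and the aged spleen, 2 were called lower, miR-215 (-3.58) and miR-7 (-2.81), both at a limma adjusted p of 0.00914.

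The same difference was set against its mean in the other 9 organs. None of 124 (0.0%) was called by limma, edgeR or DESeq2, with 2, 0 and 8 at an unadjusted p below 0.05, and the lowest limma adjusted p was 0.770. The 2 were miR-215 (-2.46, SE 1.07) and miR-450b (-1.90, SE 0.85). In RPM, the older libraries of kidney stood at 0.253 of the younger for miR-192, and 8 of the other 9 organs were also below 1, with adrenal at 0.226 and heart at 1.77. For let-7b the ratio was 3.47 in kidney and above 1 in 6 of the other 9, up to 5.60 in adrenal. For miR-1 and miR-7 it was 0.197 and 0.128 in kidney, lower than in any other organ, and below 1 in 7 of the other 9 organs. The deer of a stage are shared by the organs, so stage and deer cannot be told apart.

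**Figure D5:**
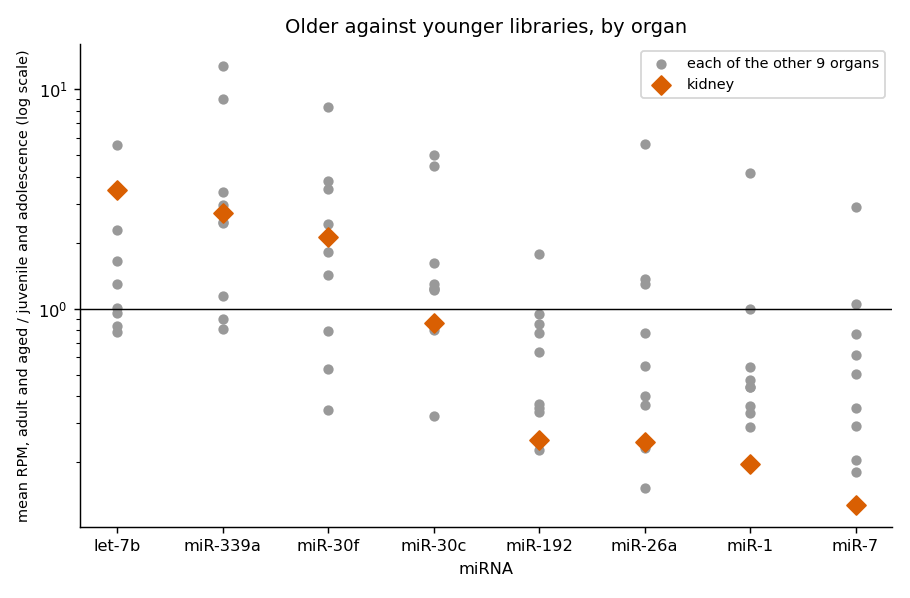
Ratio of the mean RPM of the adult and aged libraries to that of the juvenile and adolescence libraries (vertical log axis) for 8 abundant miRNAs, in kidney (orange) and in each of the other 9 organs (grey). Kidney lies at the edge of the other organs for miR-1 and miR-7 and inside their range for the others, with 3.47 for let-7b and 0.253 for miR-192.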

How the data were processed

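The study made 1 small RNA library per organ and stage from pooled RNA of 3 deer. Per the labels the NEBNext small RNA kit was used, while the methods name another kit. The authors matched reads to miRBase 22.0, predicted further miRNAs with miRDeep, and deposited RPM values (called tpm in the header, but not divided by length). Per the labels Bowtie was among the tools. All 7982 values lay within 0.01 of whole reads (largest distance 0.000243), so reads were recovered from the deposited RPM. Each column in the deposited tables belonged to 1 library, and a name not listed was set to 0.

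Known miRNAs with 10 or more reads in 4 or more of 40 libraries were tested, 124 in all. Antler lists miR-148c where the other organs list miR-2957, and it was counted as miR-2957. Another 31 names listed in antler alone were left out, as were the numbered (predicted) miRNAs. For 9 pairs of names the reads were the same to within 1% of their totals, and these were counted once in the rank order and the stage course. The tests and the r kept both names of a pair where both had enough reads. With such names merged, 22 were called between kidney and the other organs, with all 20 among them.

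Differences were fitted with limma 3.58.1 (trend) in R 4.3.3, with organ and stage, or organ by maturity and stage, as terms. Values were log2(RPM + 1), scaled by the TMM factors of edgeR 4.0.16. The fold change on this scale understates that of scarce miRNAs. Calls needed a Benjamini-Hochberg adjusted p below 0.01 and a log2 difference above 1, the limits of the study. A stage step needed 10 reads in both libraries or 30 in either. Stage entered as a replicate block, because same-numbered libraries come from the same deer. After organ means were taken out, the 180 same-numbered pairs had a mean r of 0.141 (-0.718 to 0.819). Alternatives were total reads, DESeq2 1.42.0 and edgeR on recovered reads, DESeq2 size factors, a pseudocount of 10 RPM, no minimum of reads, merged names, no block, and leaving out each kidney library or organ. The code was tested on simulated data.

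Named are the 20 highest kidney miRNAs, the 10 largest rises and 6 largest falls of the organ contrast, the 4 largest of each sign of the maturity contrast, and list members. MiR-490, miR-452 and the names listed in kidney alone fell outside this rule and were named after their values were seen. The members, lists and tests were chosen with earlier results of these data known. No sequences of the miRNAs are given here.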

Additional observations from a re-analysis of the deposited data

Results flagged for a closer look

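A part of the miRNAs listed in kidney, 61 in number, was examined by Dixon's test at the 95% level, where chance flags about 1 in 20 groups. In 6 of them 1 kidney library lay far from the other 3. MiR-145 was at 60271 RPM in the adult kidney (35208 to 38591 in the others), and miR-186 at 23297 in adolescence (12507 to 13799). MiR-493, of the DLK1-DIO3 cluster, was at 121 RPM in the juvenile kidney (12.1 to 21.8 in the others). MiR-2889 was at 36.4 RPM in the adult kidney, miR-30e-5p at 27.2 in adolescence and miR-2285e at 18.2 in the juvenile, all on few reads. None of the 6 was called between kidney and the other organs.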

How the results depend on the processing

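The calls of miR-135a, miR-192, miR-196a, miR-196b, miR-215 and miR-30f between kidney and the other organs held under all 24 alternatives, and none of the 20 called miRNAs changed direction under them. Of 64 named or list miRNAs tested, 24 changed direction under at least 1 alternative, 16 of them on total miRNA reads, and none of the 24 is among the 20. The count of 20 became 44 on total miRNA reads and 12 without skeletal muscle and heart. On the recovered reads edgeR called 24 (19 of the 20 among them) and DESeq2 29 (all 20 among them). The count was 14 to 17 with a kidney library left out and 16 to 28 with an organ left out (28 without spleen, with all 20 kept). Without the replicate block it was 18, miR-424-5p and miR-452 being lost, and the block changed no other count. The counts of 0 within kidney became 2 with a pseudocount of 10 RPM (miR-215 and miR-424-5p lower), 1 without a minimum of reads (miR-429 higher, on 2 reads) and 2 without the adolescence lung and the aged spleen (chosen after seeing the data). Against the other organs' difference they became 1 with 10 RPM (miR-215) and 1 without the minimum (miR-429). On total reads 2 miRNAs were above all 9 organs instead of 0. The 5 highest names held 69.4% of reads with repeated names counted once and 62.4% as listed. With no minimum of reads 313 stage steps passed a fold of 2, instead of 78. The causes of these shifts were not tested. In the smallest kidney library, 1 read stood for 3.04 RPM, which limits what can be seen of miRNAs at few RPM.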

Other observations

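Several miRNAs had partners from the same transcript at very unequal levels in kidney. MiR-145 had 78062 reads and miR-143 had 7, miR-192 had 259341 and miR-194 had 3, and miR-30c had 177935 and miR-30e-5p had 27. MiR-30b-5p had 1062 reads against 9 of miR-30d, and miR-17-5p had 2929 against 0 of miR-92a. The same member of each of these 5 pairs was higher in 40 of 40 libraries. MiR-199a-3p and miR-214 were closer, with 81920 and 4243 reads, a ratio of 19.3 in kidney and 17.6 in the other 36 libraries. The rank order above is an order of reads, and whether it follows the numbers of molecules was not tested. Numbered miRNAs, left out above, held 0.0925% to 0.138% of the miRNA reads in kidney and 0.00266% to 0.346% elsewhere. Thinned to 41866 reads, the depth of the smallest library, the 4 kidney libraries together listed a mean of 143.5 known names over 20 draws.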
